A study of Pan troglodytes and Macaca mulatta with 12 samples.

Results

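Among 16903 genes with at least 1 read in lymphoblastoid cell lines of chimpanzees and rhesus macaques, 171 were read in 1 species and not in the other. They were chosen by their summed counts alone, with 0 counts over all 6 libraries of one species and at least 50 over the 6 libraries of the other. Of the 171 genes, 95 were read in rhesus macaque only and 76 in chimpanzee only. Because the species difference chose them, their levels in the 2 species are given as a description with no test.

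The study read RNA from lymphoblastoid lines, which are B lymphocytes made to grow continuously in culture. There was 1 library for each of 6 chimpanzee and 6 rhesus macaque lines, and the labels name no treatment and no age. Chimpanzee replicates 3, 4 and 6 and rhesus macaque replicates 4 and 5 are from females, the others from males. All lines were grown in RPMI-1640 medium with serum. The deposited files count reads per exon on 1 shared set of exon coordinates, and library totals ran from 1434241 to 4751954 counts in chimpanzee and from 1801830 to 4600137 in rhesus macaque, 16206228 and 17739797 in all. The files do not pair gene identifiers with names, and 0 of the 16903 identifiers matched the tables at hand. Genes are therefore given by chromosome, start and end as the files write them, and their build is not given in the sources consulted here. The names EPYC, TM4SF1 and CDHR1 came with the selection rule, which gave them for 3 of the positions. Without names, the labelled cell type could not be checked against B cell markers, and markers of other cell types were not analysed.

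Lymphoblastoid lines are a common source of RNA for comparing primates, because they can be grown from the blood of each species. EPYC encodes epiphycan, a small leucine-rich proteoglycan of cartilage whose gene lies beside other genes of that family. TM4SF1 encodes a cell surface protein that crosses the membrane several times and is best known from endothelial and tumour cells. CDHR1 encodes a cadherin of photoreceptor cells in the retina. In bulk RNA, fewer cells that express a gene and less RNA per cell cannot be told apart.

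**Figure D1:**
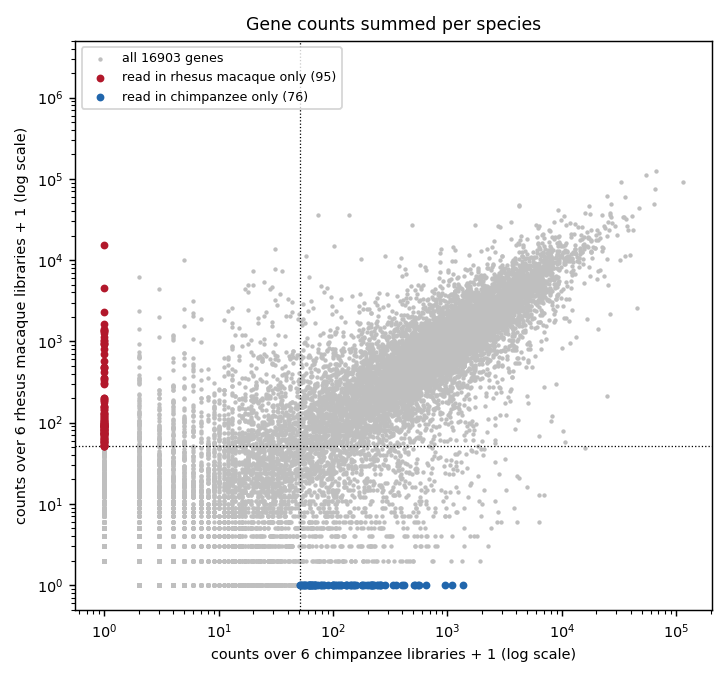
Counts summed over 6 libraries per species for all 16903 genes, each raised by 1 and on log scales, with rhesus macaque on the vertical and chimpanzee on the horizontal axis. The 95 genes read in rhesus macaque only (red) reach 15299 counts and the 76 read in chimpanzee only (blue) reach 1380, and the dotted lines mark the minimum of 50 counts.

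The 95 genes of rhesus macaque held 48521 counts, 0.274% of that species' counts, and 1 gene alone, EPYC, held 31.5% of them. The 76 genes of chimpanzee held 15651 counts, 0.0966% of that species' counts. Most were low, with a median sum of 103 counts in rhesus macaque and 123 in chimpanzee. Sums of 1000 or more were reached by 12 genes in rhesus macaque and by 2 in chimpanzee. Depth bounds the absence only where reads of the species at 0 could be counted on the gene's exons, which was not tested. At 0 counts, a floor of 3 counts over the 6 libraries corresponds to 0.180 CPM over the chimpanzee and 0.175 CPM over the rhesus macaque libraries, where CPM is counts per 1000000 counts of tested genes after scaling for library composition. Against these floors the mean levels were between at least 14.1-fold and at least 5178-fold higher in rhesus macaque (median at least 37.2-fold) and between at least 14.0-fold and at least 494-fold higher in chimpanzee (median at least 45.6-fold). The floors cover counting error only. Since the genes were chosen for being at 0, the floors are nominal for them, and so are these folds.

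The limits of the rule cut through a continuous range. At 0 counts in chimpanzee, 6 genes had 45 to 49 counts in rhesus macaque and 6 had 50 to 54. At 0 counts in rhesus macaque, 12 genes had 45 to 49 counts in chimpanzee and 5 had 50 to 54. The members closest to the limit in rhesus macaque were a single-exon gene on chromosome 8 from 140699683 to 140700524 with 50 counts and a 6-exon gene on chromosome 2 from 202670403 to 202682633 with 51. Just outside lay a single exon on chromosome 22 from 20715561 to 20715870 with 49 counts and a 20-exon gene on chromosome 2 from 201158976 to 201244460 with 48. In chimpanzee, a 7-exon gene on chromosome 1 from 205821886 to 205870589 and a single exon on chromosome 5 from 159844937 to 159845035 had 50 counts each. The nearest genes left out there had 48 counts each, a 14-exon gene at 72272222 to 72436925 of chromosome 8 and a 5-exon gene at 101792055 to 101815117 of chromosome 10.

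A single read in the other species was enough to leave out genes that differed as much. Of the genes with at least 50 counts in rhesus macaque, 73 had 1 count in chimpanzee, 39 had 2 and 50 had 3. In the other direction these numbers were 60, 44 and 45. A single exon of 150 bases would have been second by counts on the rhesus macaque list but for 1 chimpanzee count. It lies on chromosome 14 from 23056786 to 23056935 and had 6145 counts in rhesus macaque. A 22-exon gene on chromosome 10 from 72102565 to 72192203 had 4369 counts there and 2 in chimpanzee. On the chimpanzee side, a 3-exon gene on chromosome 16 from 56005287 to 56007475 had 2261 counts against 2, and a 2-exon gene on chromosome 5 from 132021764 to 132024700 had 1908 against 1.

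EPYC (ENSG00000083782, chromosome 12 from 89881591 to 89922934) had the most counts on either list, 15299. Its level in the 6 rhesus macaque libraries was 616 CPM at the lowest, 895 CPM at the median and 1209 CPM at the highest, with a mean of 930 ± 204 CPM (SD, n = 6). No rhesus macaque library was low, and the SD on the log2 scale was 0.33, which is below the median of 0.38 over the other genes with 1000 or more counts. All 6 exons had counts in all 6 libraries. Exon 4, of 175 bases, held most, with 4167 counts or 27.2% of the gene, and the last numbered exon, of 80 bases, held 480 counts. Per kb of exon the sums ran from 4231 for exon 1 to 23811 for exon 4. By the rule, none of these exons had a chimpanzee read. The chimpanzee RefSeq table (assembly mPanTro3-v2.0) lists EPYC, TM4SF1 and CDHR1 as protein-coding genes. No rhesus macaque annotation was at hand, and the listing does not show that reads on these exons could be counted in both species.

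**Figure D2:**
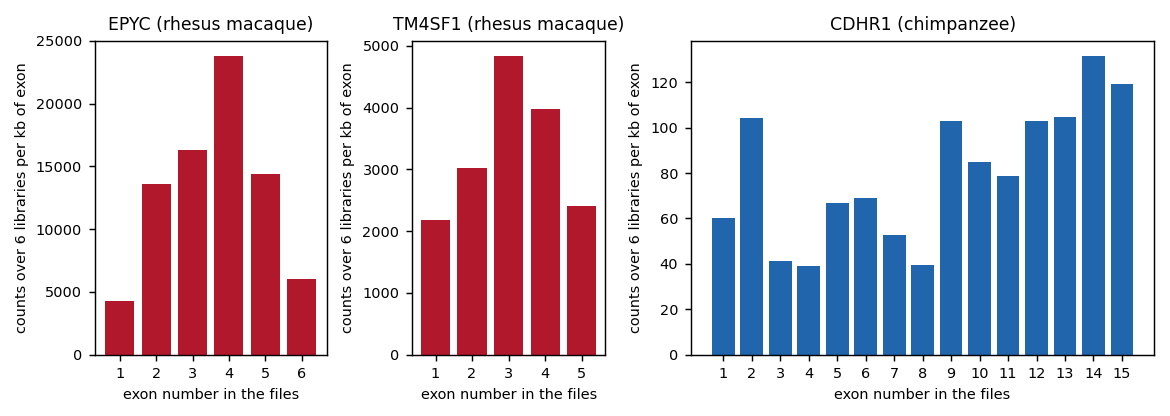
Counts over the 6 libraries of the species with reads, per kb of exon, for each numbered exon of EPYC, TM4SF1 and CDHR1 (bars from 0). Only exons with a count are listed, and their sums ran from 4231 to 23811 per kb in EPYC, 2174 to 4842 in TM4SF1 and 39.2 to 132 in CDHR1.

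Another 2 genes of the list stood near EPYC on chromosome 12. A 3-exon gene from 90021363 to 90029673, which begins 98428 bases past EPYC, had 153 counts, with 0 CPM in the lowest library, 7.70 at the median and 15.9 CPM in the highest. A 9-exon gene from 90063167 to 90100937, 33493 bases further, had 966 counts, from 26.4 CPM through a median of 51.9 to 86.7 CPM. The only other counted gene between EPYC and these 2 was a single exon with 1 rhesus macaque count. All 3 members had 0 chimpanzee counts. They did not peak in the same line, since EPYC was highest in rhesus macaque replicate 2, the 3-exon gene in replicate 5 and the 9-exon gene in replicate 1.

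TM4SF1 (ENSG00000169908, chromosome 3 from 150569495 to 150578258) stood at 224 ± 228 CPM (SD, n = 6), second by level. Its libraries ran from 48.8 CPM through a median of 129 CPM to 637 CPM, so all lines had the transcript but in unequal amounts. Replicates 6 and 1 were highest, at 637 and 341 CPM. All 5 exons were read in every library, with 41.9% of counts on exon 1 of 863 bases. The counted genes on both sides, 47525 and 96192 bases away, had 1 and 6 counts in rhesus macaque. Of the counts on these 3 genes, TM4SF1 held nearly all.

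An 8-exon gene on chromosome 2 from 96907354 to 96997091 came next, from 63.3 CPM through a median of 132 to 223 CPM. It was followed by a gene counted on 1 exon of 452 bases (chromosome 8, 143924813 to 143925264), from 29.8 CPM through a median of 101 to 138 CPM. Per kb of counted exon it stood at 206 CPM, above the 133 CPM per kb of TM4SF1 and below the 646 CPM per kb of EPYC. A 6-exon gene on chromosome 1 from 165666509 to 165676628 ran from 12.9 CPM through 85.3 to 170 CPM, with 84.1% of its counts on 1 exon. These 3 genes were read in every rhesus macaque line.

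Like EPYC, some genes differed little between the rhesus macaque lines. A 4-exon gene on chromosome 5 from 180348507 to 180362395 had 67.2 ± 13.8 CPM (SD, n = 6), with a median of 64.6, 5 libraries between 51.3 and 65.3 CPM and replicate 3 apart from them at 93.2 CPM. A 3-exon gene on chromosome 11 from 104263133 to 104268440 had 58.1 ± 12.1 CPM, between 44.99 and 79.3 with a median of 55.9. Their SDs of log2 CPM were 0.27 and 0.28, against 0.33 for EPYC. Wider spreads were found on chromosome 1, where a 13-exon gene from 200461160 to 200546108 had 81.1 ± 41.7 CPM and a 5-exon gene from 157167966 to 157181456 had 75.7 ± 30.2 CPM. Their lowest libraries, both replicate 3, held 19.4 and 32.9 CPM. All 4 genes had reads in every line.

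Others were strong in some rhesus macaque lines and nearly silent in others. One with 60 counted exons (chromosome 1, 103114611 to 103346640) ran from 2.44 CPM in replicate 1 through a median of 53.2 to 152 CPM in replicate 4. Replicates 4, 5 and 6 held 471, 331 and 537 of its 1417 counts. A 5-exon gene on chromosome 11 from 117715001 to 117718669 had 0 counts in replicate 1 and 789 of its 1049 counts in replicate 6, with CPM values from 0 through 8.63 to 171. A member 24581 bases before it, with 3 counted exons, had 60 of its 68 counts in the same replicate 6. A further gene, 8883 bases after it, had 28 rhesus macaque counts and 0 in chimpanzee and missed the minimum.

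A pair of neighbours on chromosome 11 had the same highest and the same lowest line. The 22-exon gene from 17472018 to 17522539 had 215, 23.2, 45.9, 96.3, 8.98 and 23.4 CPM in replicates 1 to 6. The 46-exon gene from 17530123 to 17625273, which begins 7583 bases later, had 308, 45.9, 60.3, 44.9, 4.76 and 29.6 CPM. Both were highest in replicate 1 and lowest in replicate 5. The gene before them, 18867 bases away, had 122 counts in rhesus macaque and 2 in chimpanzee. On chromosome 20, adjacent members of 5 and 4 exons, 1779 bases apart, had 67 of 75 and 66 of 95 counts in replicate 4. In all, 6 pairs of members read in rhesus macaque and 2 read in chimpanzee lay within 500000 bases of each other. One of the chimpanzee pairs, single exons of 51 and 66 bases on chromosome 14 with 130 and 179 counts, had 25 other counted genes between them.

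**Figure D3:**
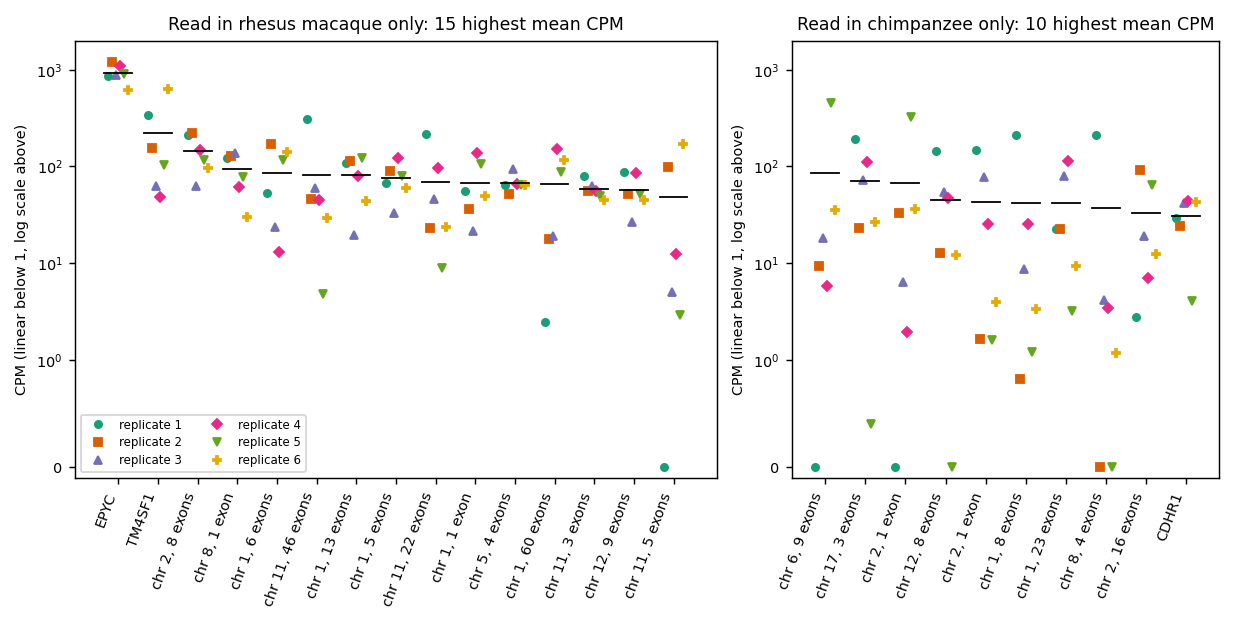
CPM in each library of the species with reads, for the 15 genes of rhesus macaque and the 10 of chimpanzee with the highest mean (linear below 1, log scale above; bars are means, symbols are replicates 1 to 6). EPYC lies between 616 and 1209 CPM in every rhesus macaque line, while the leading chimpanzee gene lies between 0 and 449 CPM.

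The 10 leading genes read in chimpanzee only had mean levels between 31.0 and 86.3 CPM. Over the whole lists the median of the mean level was 7.96 CPM in chimpanzee against 6.68 CPM in rhesus macaque. The leading one, ENSG00000164458, with 9 exons on chromosome 6 from 166490785 to 166502121, had 86.3 ± 178 CPM (SD, n = 6). Its libraries ran from 0 through a median of 13.9 to 449 CPM, and 1112 of its 1380 counts came from replicate 5. A 3-exon gene on chromosome 17 from 29606409 to 29608329 showed the opposite order, with 0.404 CPM in replicate 5, a median of 49.6 and 195 CPM in replicate 1. An 8-exon gene on chromosome 12 from 78135414 to 78369917 was absent in replicate 5 and likewise highest in replicate 1, at 144 CPM.

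One exon of 289 bases (chromosome 2, 89012299 to 89012587) held 810 of its 1099 counts in replicate 5. A 2-exon member 33881 bases before it, from 88977926 to 88978417, held 355 of its 403 counts in replicate 2. Adjacent members thus came from different lines here, and 1 counted gene with 18 chimpanzee counts lay between them. An 8-exon gene on chromosome 1 from 204484082 to 204495683 had 214 CPM in replicate 1 against a median of 5.98 CPM, and a 4-exon gene on chromosome 8 from 82553484 to 82558023 had 213 CPM in replicate 1 against a median of 2.32.

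Another 3 leading chimpanzee genes were read in every line at unequal levels. A gene counted on 1 exon of 474 bases (chromosome 2, 228390022 to 228390495) ran from 1.61 CPM through 14.7 to 146 CPM. A 23-exon gene on chromosome 1 from 181421797 to 181479158 ran from 3.23 CPM through 22.4 to 114 CPM. A 16-exon gene on chromosome 2 from 206256229 to 206371099 ran from 2.79 CPM through 15.9 to 92.7 CPM. The highest lines were replicates 1, 4 and 2 in this order.

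CDHR1 (ENSG00000148600, chromosome 10 from 85944386 to 85967099) was the most even of the 10 leading chimpanzee genes. It stood at 31.0 ± 15.4 CPM (SD, n = 6), with 4.04 CPM in replicate 5, a median of 35.5 and 43.5 CPM in replicate 4. Exons 1 to 15 were listed with no number missing, and exons without a count are not listed. Exon 15, of 3282 bases, held 392 of the 554 counts, yet per kb it stood at 119, within the range of 39.2 to 132 over the 15 exons. The tested gene 41475 bases before it did not pass the test of species, with 519 CPM in the chimpanzee lines against 451 CPM (edgeR quasi-likelihood test, adjusted p = 0.599). Between them, 9358 bases before CDHR1, a 2-exon gene had 29 chimpanzee counts and 1 in rhesus macaque.

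Genes counted on 1 exon made up 21 of 95 members (22.1%) in rhesus macaque and 21 of 76 (27.6%) in chimpanzee, against 8.98% and 8.84% of the other genes with at least 50 counts in the same species. The members had fewer counts than those other genes (medians of 103 and 123 against 728 and 732), and only exons with a count are listed. At 50 to 199 counts the shares lay closer together, with 17 of 67 members (25.4%) against 18.9% of other genes in rhesus macaque and 16 of 51 (31.4%) against 20.1% in chimpanzee. The median counted length of the single-exon members was 339 and 289 bases. Reads shared with similar sequences elsewhere were not tested. One member, a single exon of 63 bases on chromosome 17, overlaps an exon of another gene, so its reads cannot be assigned without strand.

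In chimpanzee the single-exon members varied less between lines than the members with several exons. Their median SD of log2 CPM over 6 libraries was 0.74, against 1.79 for the 55 members with several exons. An SD under 0.5 was found for 6 of the 21 single-exon members and for 0 of the 55 others. For example, a single exon of 186 bases on chromosome 3 from 25340972 to 25341157 ran from 12.5 CPM through 16.9 to 22.3 CPM, and 1 of 265 bases on chromosome 7 from 16894770 to 16895034 from 3.14 CPM through 4.57 to 4.88 CPM. Among other chimpanzee genes with 50 to 199 counts the order was slight, at 0.68 for single-exon genes and 0.76 for genes with several exons. Of these, 107 of 404 and 358 of 1604 had an SD under 0.5. The share of the single-exon members lay near that of other single-exon genes, so they were not unusually steady. In rhesus macaque the members' medians were 0.97 and 1.43, and an SD under 0.5 was found for 4 of 21 and 8 of 74. Among other rhesus macaque genes with 50 to 199 counts it was found for 120 of 398 and 442 of 1706. The 2 steady examples were chosen after their values were seen.

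As a whole, the members varied more between individuals than other genes of like counts. Among genes with 50 to 199 counts, the median SD of log2 CPM was 1.26 for 67 members and 0.69 for 2104 other genes in rhesus macaque, and 1.53 for 51 members and 0.74 for 2008 other genes in chimpanzee. From 200 to under 1000 counts it was 1.497 against 0.46 in rhesus macaque and 1.89 against 0.51 in chimpanzee. Counts in all 6 libraries were found for 61 of 95 members (64.2%) in rhesus macaque and 45 of 76 (59.2%) in chimpanzee, against 97.9% and 97.6% of the other genes, which had more counts. At 50 to 199 counts these shares were 55.2% of members against 91.35% (1922 of 2104) in rhesus macaque and 54.9% against 90.7% (1822 of 2008) in chimpanzee. In 26 members of rhesus macaque and 33 of chimpanzee, 1 library held at least 50% of the gene's summed CPM. That is 27.4% and 43.4% of members, against 3.73% and 4.01% of the other genes. At 50 to 199 counts it was 31.3% against 10.9% in rhesus macaque and 37.3% against 11.1% in chimpanzee.

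**Figure D4:**
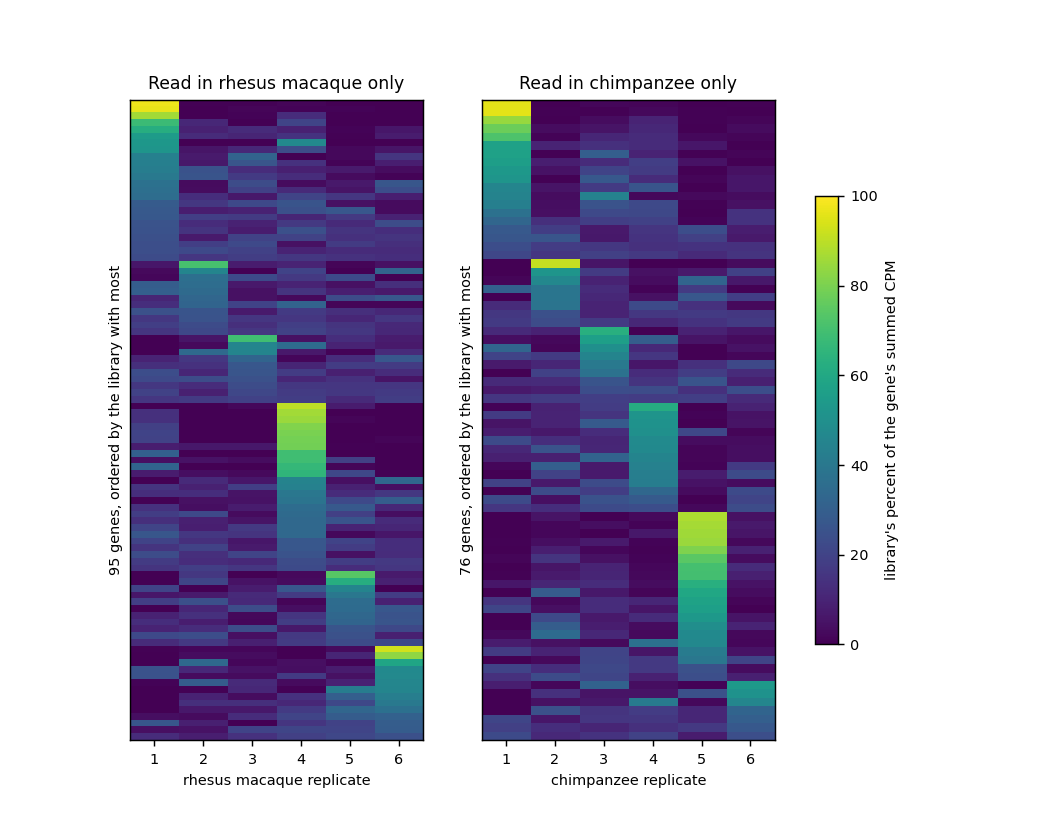
Each row is 1 gene and each column 1 library of the species with reads; colour gives the library's percent of the gene's summed CPM (0 to 100), and rows are ordered by the library that holds most. Rhesus macaque replicates 1 and 4 hold most for 24 and 25 of 95 genes, and chimpanzee replicates 1 and 5 for 19 and 20 of 76.

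The lines that held most were not spread evenly, for the members or for other genes. In chimpanzee, replicate 5 was highest for 20 members (26.3%) and replicate 1 for 19 (25.0%), and they held at least 50% of the summed CPM for 13 and 10 members. Among the other genes they were highest for 19.3% and 28.3%. Replicate 1 also lacked 18 members altogether and replicate 5 lacked 10, against 1 to 3 in the other chimpanzee libraries. Replicate 1 is the smallest library, with 1434241 counts. The members' summed level ran from 502 CPM in replicate 6 to 1593 CPM in replicate 5. Without both of these lines, 54 of the 76 members still met the rule.

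In rhesus macaque, replicates 4 and 1 were highest for 25 (26.3%) and 24 (25.3%) members, against 15.5% and 17.5% of other genes. A group of 9 members was read almost only in these 2 lines. They together held at least 90% of the summed CPM, with at least 10% in each. The counts of the 9 genes ran from 17 to 142 in replicate 4 and from 5 to 61 in replicate 1, and 5 of the 9 had 0 counts in the other 4 rhesus macaque libraries. An example is a 4-exon gene on chromosome 3 from 46874361 to 46877319, with 142 and 19 counts. Both rhesus macaque members nearest to the minimum of 50 counts belong to this group. The same pattern held for 64 of the 9884 other genes (0.648%), which had more counts, against 9.47% of the members. No other pair of rhesus macaque libraries had more than 1 such member or more than 3 such other genes, and no chimpanzee pair had more than 1 such member or more than 8 such other genes. Replicate 1 is male and replicate 4 female in the labels. This grouping was noticed after the values were seen, and its source was not tested. Without both lines 62 genes of the list met the rule.

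Most members had too few counts, or too few lines with counts, for the main test over all genes. Of the 95 and 76 members, 23 and 6 passed the expression filter, which keeps a gene that is at 0 in one species only if all 6 libraries of the other hold enough reads. All 29 passed the species test, as did 48.3% of the 9440 genes tested (edgeR quasi-likelihood test at an adjusted p under 0.05, with 24.7% higher in chimpanzee and 23.6% in rhesus macaque). Since the same contrast chose the members, nothing is read from this count. Single-exon genes were 5 of the 23 and 4 of the 6. Of the leading genes, 13 of the 15 of rhesus macaque and 1 of the 10 of chimpanzee, CDHR1, passed the filter.

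Sex was not used by the rule and was tested in a fit with 1 estimate of the spread over all 12 libraries. No member passed the test of females against males, with 0 of 23 called in rhesus macaque and 0 of 6 in chimpanzee (edgeR quasi-likelihood test, lowest adjusted p = 1 and adjusted p = 0.562), where 0% of all genes were called in both species. Unadjusted p-values under 0.05 were found for 3 of 23 members in rhesus macaque, against 2.2% of all genes, and 1 of 6 in chimpanzee, against 7.02%. With no filter beyond 1 count, all members were tested and 0 were called, while unadjusted p-values under 0.05 were found for 11 of 95 members in rhesus macaque, against 2.57% of all genes, and for 18 of 76 in chimpanzee, against 6.31% (edgeR). For each member the 6 libraries of the other species were at 0 by the rule, and they entered the estimate of the spread. The members' p-values thus rest in part on values the rule used. Their shares cannot be weighed against those of all genes, and why they lie above was not tested. DESeq2 called 3 genes in rhesus macaque and 50 in chimpanzee, and 0 of them were members. One gene with a single counted exon of 930 bases on chromosome 1, from 110061482 to 110062411, reached 138 and 106 CPM in the 2 rhesus macaque females and 21.4 to 55.5 CPM in the 4 males. Its log2 difference, female minus male, was 1.58, which did not pass adjustment (edgeR unadjusted p = 0.00493, adjusted p = 1). How many other genes separate the sexes in this way was not counted. TM4SF1 had a log2 difference, female minus male, of -1.98 (edgeR unadjusted p = 0.0479, adjusted p = 1), but male replicate 3, at 63.3 CPM, lay between the females at 48.8 and 103 CPM. With 2 females the comparison is weak.

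The genes around the members were examined next, since they took no part in the rule. For 58 members of rhesus macaque and 37 of chimpanzee, the nearest tested gene that is no member lay within 100 kb on at least 1 side. Of the 81 such neighbours in rhesus macaque, 31 (38.3%) were higher in rhesus macaque and 9 (11.1%) in chimpanzee (edgeR adjusted p under 0.05), against 23.6% and 24.7% of all tested genes. Beside the chimpanzee members, 25 of 46 (54.4%) were higher in chimpanzee and 5 (10.9%) in rhesus macaque. The median log2 fold change, chimpanzee minus rhesus macaque, was -0.36 beside the former and 0.97 beside the latter, and 0.04 over all tested genes. Without the limit of 100 kb the counts were 48 higher in rhesus macaque and 33 in chimpanzee of 178, and 61 higher in chimpanzee and 20 in rhesus macaque of 146. Adjacent genes are not independent of each other, and a tendency of neighbours to differ in the same direction was already known from these data.

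**Figure D5:**
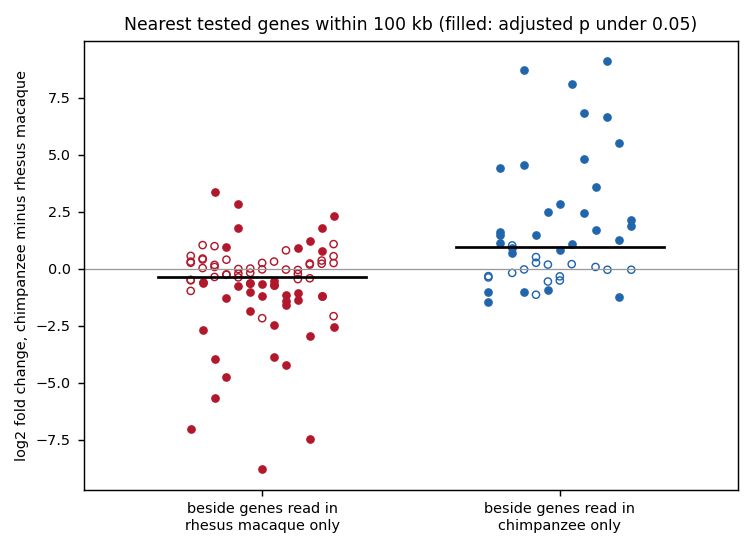
Log2 fold change, chimpanzee minus rhesus macaque, of the nearest tested gene within 100 kb on each side of a member (points; filled where adjusted p is under 0.05, lines are medians). Beside the genes of rhesus macaque the median is -0.36 over 81 neighbours and beside those of chimpanzee 0.97 over 46.

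Some neighbours were nearly read in 1 species only. The gene 5019 bases after a 3-exon member on chromosome 9, from 138776461 to 138778786, reached 46.9 CPM in rhesus macaque against 0.0684 CPM (log2 fold change -8.79, edgeR adjusted p = 8.86e-06). Beside a single-exon member of chimpanzee on chromosome 10, the gene from 8137256 to 8157170, 1802 bases away, stood at 153 CPM in chimpanzee against 0.235 CPM (log2 fold change 9.10, edgeR adjusted p = 1.73e-07). These 2 neighbours were chosen after their values were seen. Among neighbours of the leading genes, the one 36112 bases before the 13-exon gene of chromosome 1 stood at 44.97 CPM in rhesus macaque against 0.792 CPM (log2 fold change -5.66, edgeR adjusted p = 2.13e-06). The gene on its other side, 22652 bases away, failed the test, with 28.5 CPM in rhesus macaque against 31.9 CPM (edgeR adjusted p = 0.601).

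Beside some other members the nearest tested gene did not pass the test or went the other way. The tested gene 17533 bases before the 6-exon gene of chromosome 1 stood at 28.7 CPM in rhesus macaque against 29.2 CPM (edgeR adjusted p = 0.945). The tested gene 73186 bases after the 5-exon gene at 157167966 on chromosome 1 stood at 283 against 330 CPM in the same order (edgeR adjusted p = 0.389). Next to the 3-exon gene of chromosome 11, the gene 52244 bases away was higher in chimpanzee, at 116 CPM against 34.3 CPM (log2 fold change 1.77, edgeR adjusted p = 9.23e-05). A missing call does not show that these levels are equal. The gene 40446 bases before the 23-exon chimpanzee member was higher in chimpanzee, at 122 CPM against 22.1 CPM (log2 fold change 2.45, edgeR adjusted p = 0.00012). Around the 5-exon member of chromosome 11 the 2 sides differed. The gene before it was higher in rhesus macaque (log2 fold change -1.43, edgeR adjusted p = 0.00733). The gene after it was higher in chimpanzee (log2 fold change 0.898, edgeR adjusted p = 0.00252).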

How the data were processed

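RNA from lymphoblastoid lines of 6 chimpanzees and 6 rhesus macaques was sequenced on a GAII with no strand marking mentioned, per the labels' protocols. The authors deposited raw counts per exon, 1 file per library, listing exons with at least 1 count; a missing exon was taken as 0. The aligner, counting tool, genome build and orthology rules were not given in the sources used here. Exon counts were summed per gene, and the rule was applied to the sums per species. Fits used edgeR 4.0.16 (limma 3.58.1, R 4.3.3): quasi-likelihood tests, TMM factors, default filter (minimum count 10, minimum total 15, groups of 6), Benjamini-Hochberg adjustment over all tested genes at 0.05, with species as the term, or 4 groups of species by sex. CPM used the tested genes' counts times the TMM factor as library size, and log2 CPM a prior count of 2. DESeq2 1.42.0 was an alternative. The fit was tested on simulated data. A gene at 0 got a floor of 3 counts over 6 libraries. Depth limits low genes most.

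The named genes are the 15 of rhesus macaque and 10 of chimpanzee with the highest mean CPM, the genes nearest the rule's limits, and some of the tested neighbours within 100 kb. Members and lists were chosen with earlier results of these data known. Lists of gene families and cell type markers need names and were not run. Replicates carry no numbers in the labels and were numbered by accession order; p-values measure the spread between lines.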

Additional observations from a re-analysis of the deposited data

Results flagged for a closer look

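In 6 of the 25 leading genes, 1 library stood far from the other 5 of its species, with a gap to the nearest library that exceeded Dixon's 95% critical value for 6 samples as a share of the whole range. Chance flags about 1 in 20 groups of normally distributed values. The values here were CPM with no log scale, and all 6 flags were on the high side. The leading genes were ranked by mean CPM, which 1 high library raises. The share of flagged genes among all genes was not computed, so no excess over chance is read from this count.

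In rhesus macaque, the 46-exon gene on chromosome 11 from 17530123 had 308 CPM in replicate 1 and 60.3 CPM in the next library (gap 0.817 of the range). The 4-exon gene on chromosome 5 from 180348507 had 93.2 CPM in replicate 3 and 65.3 CPM in the next (gap 0.667). In chimpanzee, the 9-exon gene on chromosome 6 from 166490785 had 449 CPM in replicate 5 and 35.5 CPM in the next (gap 0.921). The single exon on chromosome 2 from 89012299 had 327 CPM in the same replicate and 36.5 CPM in the next (gap 0.888). The 8-exon gene on chromosome 1 from 204484082 had 214 CPM in replicate 1 and 25.4 CPM in the next (gap 0.885), and the 4-exon gene on chromosome 8 from 82553484 had 213 CPM in that replicate and 4.13 CPM in the next (gap 0.981). What sets these libraries apart was not tested.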

How the results depend on the processing

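The number of genes read in rhesus macaque only (95) and in chimpanzee only (76) follows the limits of the rule. With a minimum of 20 counts there were 166 and 164, and with a minimum of 100 there were 49 and 44. Allowing at most 1 count in the other species gave 168 and 136, and at most 3 gave 257 and 225. Leaving out 1 library gave 75 to 126 genes in rhesus macaque and 61 to 115 in chimpanzee. The 115 came without rhesus macaque replicate 4. Without rhesus macaque replicates 1 and 4 together, a choice made after seeing the data, 62 genes remained in rhesus macaque. Calls between the species (4558 of 9440 tested genes) stayed between 4222 and 6207 under the alternatives run, which tested different numbers of genes. The 4222 were of 9663, without rhesus macaque replicate 2, and the 6207 of 16903, with no filter beyond 1 count. Leaving out 1 library gave 0 to 4 sex calls in chimpanzee, 4 without chimpanzee replicate 1 and 3 without replicate 2, and 0 in rhesus macaque; where 1 rhesus macaque female was left out, the lone female was assumed to vary like the other groups. DESeq2 gave 50 sex calls in chimpanzee and 3 in rhesus macaque. Neighbours called between the species in either direction were 162 of 324, and 70 of 127 within 100 kb, against 48.3% of all tested genes. With no filter beyond 1 count they were 125 of 331, against 6207 of 16903 for all genes. No excess of calls beside the members is read from these counts. The members' median SD of log2 CPM was 1.52, 1.89 with a prior count of 0.5, and 1.28 to 1.53 without 1 library.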
